A study of Drosophila melanogaster with 4 samples.

Results

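The gene lola (longitudinals lacking) encodes a family of transcription factors that share an amino-terminal BTB domain, a fold through which such proteins pair, and differ in their carboxy-terminal part, which in most versions carries zinc fingers that bind DNA. The shared exons of the gene lie at its 5' side and are spliced to one of many alternative 3' exons, so that each ending gives a different protein. The gene is known for its role in the growth of axons and, in the testis, in the upkeep of germline and somatic stem cells. In flies it is also one of few genes for which joining of exons from separate RNA molecules (trans-splicing) has been described. The RefSeq span of lola is 10481894 to 10543291 on chromosome arm 2R of Release 6. The gene's strand was taken as that of most catalogue transcripts overlapping this span by an exon, which is the minus strand. The members were all transcript models that overlap the span by an exon on that strand. They number 46 of 40180 in the catalogue, all of them in 1 of its 9100 loci. The gene was selected on the number of its transcripts and the layout of their starts and last exons, so these values are given as a description with no test.

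The catalogue merges long-read RNA sequencing (PacBio Iso-Seq, which reads a polyadenylated transcript as a full-length cDNA) of Drosophila melanogaster testes from 4 samples. In 2 samples the males had the genotype bamGAL4/ KmgRNAi, in which the driver directs RNA interference against kmg, a zinc-finger gene of spermatocytes; the other 2 samples were bamGAL4 males and served as the control. The testes (150 pairs pooled per sample) came from males aged 0 to 2 days; eggs were laid over 3 days at 25 °C and the progeny of both groups were then moved to 29 °C. The bam driver acts in germ cells that enter differentiation, so the somatic cells and stem cells of the knockdown testes are not expected to carry the knockdown, and both groups carry the driver. The study asks which cryptic promoters are kept silent in this lineage. No line of the catalogue names a sample or a condition (0 lines) or a read number. The knockdown and the control could thus not be compared for lola, the depth behind each transcript is unknown, and a transcript's presence says nothing on its abundance. All 11 germline genes of a marker list (vas, bam, bgcn, aly, can, sa, bol, twe, Mst77F, Mst87F and dj) had a transcript whose span overlapped that of the gene by at least 50% of their joint span, as did 5 of 6 genes of somatic testis cells, without piwi. So did 5 of 7 genes of neurons, muscle and fat body (without repo and Yp1), so that presence in the catalogue does not tell cell types apart.

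**Figure D1:**
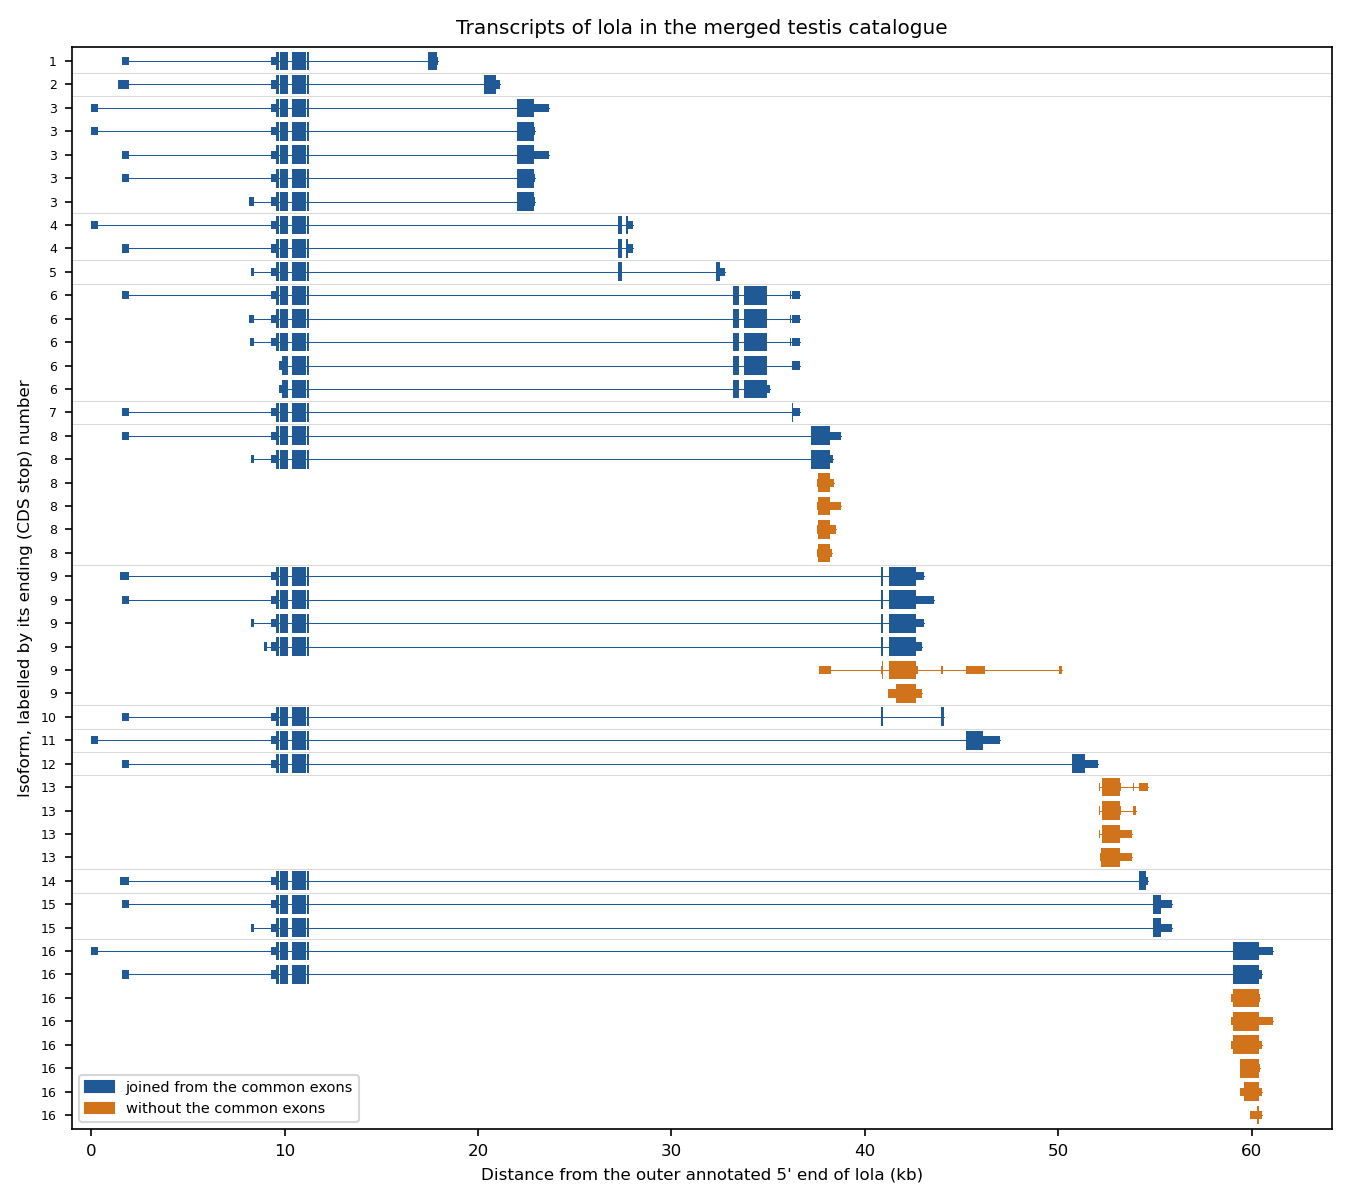
Map of the 46 lola transcripts, 1 per line, from the outer annotated 5' end of the gene (left) to its 3' end, in kb. Thick bars are predicted CDS, thin bars untranslated exon and lines introns; numbers on the left give the ending (CDS stop), counted 5' to 3'. The 30 blue transcripts contain the last common exon, and the 16 orange ones start among the alternative 3' exons.

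Several layers can be told apart in the map of the transcripts: alternative first exons, a block of 4 common exons, a row of alternative endings, and 16 transcripts that hold endings without the common block. Of the 46 transcripts, 34 were spliced and 12 were not. Unspliced models made up 26.1% of lola transcripts and 13.8% of all 40180 transcripts of the catalogue. All 46 had a predicted coding sequence (CDS), which 90.9% of all transcripts had. The stop is given here as the last position of the predicted CDS; whether that includes the stop codon could not be read without sequence, so each 3' UTR and each distance from a stop could be shorter by 1 codon. Mature lengths went from 640 to 4340 bases. The most 5' transcript end lay 4 bp from the annotated outer end and the most 3' end 313 bp from the annotated one. Isoform numbers of the locus run to 153, of which the 46 that are listed are 30.1%.

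The common block was used by 30 of the 46 transcripts (65.2%), counted as those that contain the donor of the last common coding exon at 10532039. Its first exon (10533576 to 10533968, 393 bp) was used by 28 spliced transcripts and holds the start of the CDS at 10533749. The second (10533118 to 10533511, 394 bp), the third (10532181 to 10532894, 714 bp) and the fourth (10532039 to 10532119, 81 bp) are coding throughout. The introns between them measured 64, 223 and 61 bp. Together the 4 exons hold 1363 bp of CDS, that is 454 whole codons and 1 base over, and this part encodes the BTB domain of the known proteins. Because 1 base is left over, every CDS that leaves the block enters its next exon in the same phase. Of the 30 transcripts, 28 began the CDS at 10533749, and in the other 2 it began at 10533436 in the second common exon, 83 codons farther in. How much of the BTB domain this shorter CDS keeps was not examined, since no sequence was translated.

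Transcripts with the common block opened with several first exons. By the donor of the first exon there were 4 separate first exons upstream of the block, all of them untranslated, and 2 further transcripts that started inside it. First exon 1, the outermost, ended at donor 10542905 and opened 5 transcripts, all of them at exactly 10543287, with a 5' untranslated region (UTR) of 602 bases. First exon 2, with donor 10541345, opened 15 transcripts. Their 5' ends spread over 221 bp, between 10541887 and 10541666, with 10 of the 15 at 10541666, and their 5' UTRs measured 541 to 762 bases. First exon 3, with donor 10534850, opened 7 transcripts at 7 different positions between 10535133 and 10535026 (5' UTR 396 to 503 bases). First exon 4, with donor 10534178, opened 1 transcript, at 10534352 (5' UTR 394 bases). First exon 3 begins 8158 to 8265 bp inside the gene, and its intron before the common block was 881 bp long. The intron was 8936 bp long from first exon 1 and 7376 bp from first exon 2. Because the CDS starts in the common block, the choice among these 4 first exons changed the 5' UTR and left the predicted protein the same. The 2 transcripts that start inside the block, at 10533563 and 10533554, begin in the intron before the second common exon, and they are the 2 with the CDS start at 10533436. When 5' ends within 50 bp of each other were joined, all 46 transcripts gave 15 start groups, 8 of which lead into the common block.

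Other RefSeq genes lie in this 5' part of lola. The small nucleolar RNAs snoRNA:lola-a, snoRNA:lola-b, snoRNA:lola-c and snoRNA:lola-d, which guide modification of other RNAs, lie between 10536495 and 10537270. That is inside the long intron of the 20 transcripts from first exons 1 and 2, and upstream of first exon 3. The antisense RNA gene asRNA:CR45135 (10541595 to 10541995) overlaps first exon 2, in which 15 lola transcripts have exon sequence. On the plus strand the catalogue listed 0 transcripts overlapping it.

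From the common donor at 10532039 the 30 transcripts were joined to 13 different acceptors, and 2 of these next exons led on to 2 different CDS stops each. They reached 15 different CDS stops, and 1 further stop was reached only by transcripts without the common block. The 16 stops are called endings and are numbered 1 to 16 from the 5' to the 3' side of the gene. The intron after the common donor was 6176 bp long for ending 1 and 47786 bp for ending 16, with a median of 25965 bp over the 13 acceptors. The median of all 44300 distinct introns in the catalogue was 83 bp, and 6.43% of them were at least 6176 bp long. In 10 of the 15 endings a single exon followed the common block. Of the 15 endings, 8 rest on 1 transcript with the common block.

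The 5 endings nearest the common block lay between 17892 and 32485 bp from the outer 5' end. Ending 1 (exon 10525349 to 10525862, stop at 10525399) added 464 bp of CDS and had a 3' UTR of 50 bases. Ending 2 (exon 10522169 to 10522969, stop at 10522335) added 635 bp, with a 3' UTR of 166 bases. Each was represented by 1 transcript from first exon 2. Ending 3 had 5 transcripts and came from first exons 1, 2 and 3. Its exon opened at 10521277, added 884 bp of CDS up to the stop at 10520394, and ended at 10520357 in 3 transcripts, which leaves 37 bases of 3' UTR. In the other 2 the same exon ran on to 10519640 and 10519644, for 3' UTRs of 754 and 750 bases.

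Endings 4 and 5 share a coding exon of 217 bp (10515835 to 10516051) and diverge after it. In ending 4, with 2 transcripts, it was spliced over 176 bp to a last exon at 10515301 to 10515658, for 335 bp of CDS after the block. In ending 5, with 1 transcript, it was spliced over 4830 bp to a last exon at 10510525 to 10511004, for 416 bp. These exons thus give 2 predicted coding sequences that have the 217 bp in common beyond the block and differ after it.

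Ending 6 had the longest CDS of the gene, 2913 bp, of which 1550 bp (53.2%) came after the block. It was read from 2 exons (10509795 to 10510136 and 10508329 to 10509554) and was reached in 5 transcripts, from first exons 2 and 3 and from the 2 starts inside the block. The stop at 10508347 lies 18 bases before the end of its exon. In 3 of the 5 transcripts, a 45 bp exon (10507114 to 10507158) and a last exon opening at 10507040 followed, both untranslated, which puts the stop 63 bases before the last exon junction. In 1 transcript from inside the block the 45 bp exon was skipped, which puts the stop 18 bases before the last junction. In the other transcript from inside the block the coding exon itself ran on to a 3' end at 10508214, with no exon after the stop. The CDS of those last 2 transcripts was 2664 bp.

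Ending 7 used the same last exon as most transcripts of ending 6 in another way. In 1 transcript the common donor was joined directly to 10507040, and the CDS stopped at 10507036, after 5 bp. Its CDS of 1368 bp was the shortest of the 30 transcripts with the block and consists almost wholly of the common part. The same exon is thus untranslated sequence in ending 6 and holds the stop in ending 7.

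The endings farther 3' differed widely in length. Ending 8 (exon opening at 10506073, stop at 10505073) added 1001 bp of CDS in 2 transcripts from first exons 2 and 3. Endings 9 and 10 share a 105 bp coding exon (10502358 to 10502462) and diverge after it, as endings 4 and 5 do. In ending 9, with 4 transcripts that hold the block, a large exon opening at 10502059 brought the added CDS to 1529 bp and the whole CDS to 2892 bp. In ending 10, with 1 transcript, a last exon at 10499187 to 10499358 gave 242 bp, and a 3' UTR of 35 bases, the shortest of all 46 transcripts. Ending 11 (exon 10496295 to 10498089) added 911 bp in 1 transcript from first exon 1. Ending 12 (exon 10491254 to 10492585) added 644 bp and ending 14 (exon 10488656 to 10489143) 371 bp, each in 1 transcript from first exon 2. Ending 15 (exon opening at 10488426) added 446 bp in 2 transcripts, with 3' ends 1 bp apart. Ending 16, at the 3' edge of the gene (exon opening at 10484252, stop at 10482940), added 1313 bp in 2 transcripts from first exons 1 and 2. Over the 15 endings the added CDS went from 5 to 1550 bp, with a median of 635 bp.

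**Figure D2:**
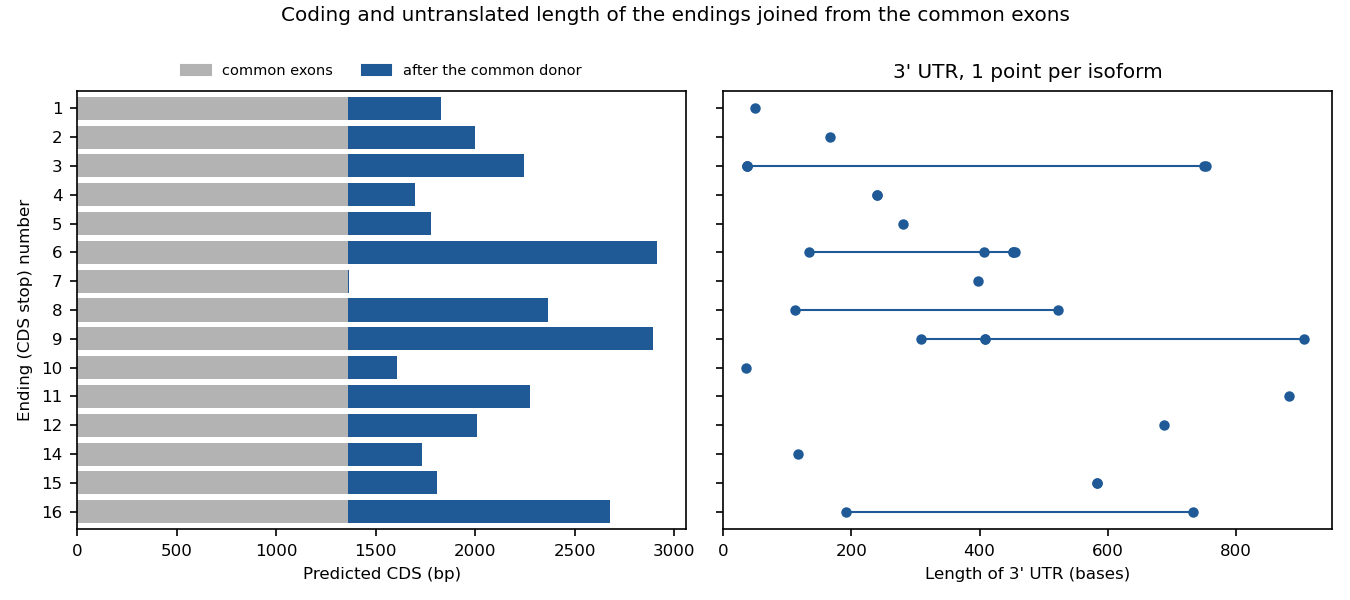
Left, predicted CDS in bp for the 15 endings joined from the common exons, split into the 1363 bp of the common block (grey) and the part after it (blue), for the CDS that starts at 10533749. Right, the length of the 3' UTR in bases, with 1 point per transcript that holds the block and a line over the range of an ending; the added CDS goes from 5 bp (ending 7) to 1550 bp (ending 6).

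The position of the 3' end also varied within endings. In 5 of the 15 endings the transcripts with the block ended at sites more than 50 bp apart, namely in endings 3, 6, 8, 9 and 16. Ending 8 had 3' UTRs of 522 and 112 bases. Ending 9 had 3' UTRs of 907 bases in 1 transcript, 408 in 2 and 308 in 1, and ending 16 had 733 and 191 bases. Across all 46 transcripts the 3' UTR measured between 35 and 1322 bases, with a median of 308. Without read numbers, the relative use of these sites is unknown.

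First exons and endings were combined in 25 different ways. First exon 2 was joined to 13 of the 15 endings and was the only one listed for 6 of them, endings 1, 2, 7, 10, 12 and 14. First exon 3 reached 6 endings and was the only one listed for ending 5, and first exon 1 reached 4 and was the only one listed for ending 11. In all, 7 endings were reached from more than 1 first exon. Endings 3, 6 and 9 were each reached from 3. First exon 2 also opened 15 of the 30 transcripts, and an ending with 1 listed transcript can show 1 first exon only. Whether a first exon prefers an ending was therefore not tested.

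**Figure D3:**
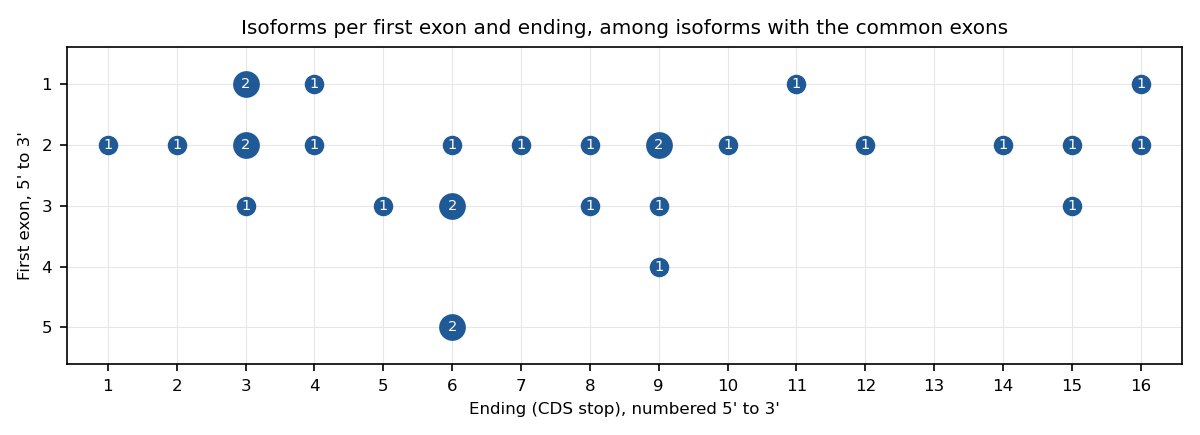
Number of transcripts for each combination of first exon (rows, 5' to 3', with starts inside the common block as row 5) and ending (columns), among the 30 transcripts with the common donor. First exon 2 covers 13 endings, and ending 13 has no transcript of this kind.

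The remaining 16 transcripts lacked all 4 common exons and began among the alternative 3' exons, at least 37523 bp inside the gene. They carried a predicted CDS of 99 to 1473 bp without the BTB part, 4 of them were spliced, and they reached 4 endings. For endings 8, 9 and 16 the same stop was also reached from the common block. For ending 13 it was not. Of the 16, 8 began inside an exon that transcripts with the block use and 8 began between such exons.

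Ending 13 is the unit that was seen only apart from the common exons. Its 4 transcripts started at 10491192, 10491186, 10491185 and 10491137, between 52099 and 52154 bp inside the gene. In 3 of them a short first exon ended at 10491134 and was spliced to an exon opening at 10491051. The CDS began at 10491143, so that the first exon holds 10 bp of it, and ran for 953 bp in the next exon to the stop at 10490099, for 963 bp in all. The exon at 10491051 was joined to the common donor in 0 of 30 transcripts. The 10 bp leave 1 base over, as the 1363 bp of the common block do, so this exon is read in the same phase as the exons that follow the block in the other 15 endings. The fourth transcript, at 10491137, was unspliced and carried a CDS of 996 bp to the same stop.

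The 3 spliced transcripts of this unit differed behind the stop. In isoform 33 the coding exon ran on to a 3' end at 10489514. In isoform 31 it was cut at 10490043 and joined to a last exon at 10489290 to 10489427. In isoform 27 it was joined to a 66 bp exon (10489362 to 10489427) and then to the acceptor at 10489143, which is the coding exon of ending 14 in the transcript from the common donor and here is untranslated. The stop of isoforms 31 and 27 thus lay 56 and 122 bases before the last exon junction.

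Ending 16 was represented by 6 transcripts without the block, all unspliced, beside 2 with it. Of the 6, 3 began at 10484366 or 10484356, which is 114 or 104 bp upstream of the acceptor used from the common block, in sequence that is intron there. Their CDS of 1329 bp began 16 bp upstream of that acceptor and ended at the same stop as the 1313 bp of the spliced ending. The other 3 began farther in, at 10483933, 10483913 and 10483392, with CDS of 978, 771 and 99 bp. RefSeq places a segment named pre-lola-G, a part of the gene annotated on its own, at 10481894 to 10485252, and all 6 transcripts lay inside it; the table gives no strand. The most 5' of them started 886 bp from the upper edge of the segment. The table holds 24 such segments, 1 for lola and 23 for mod(mdg4), another gene with trans-spliced endings. No segment is annotated at ending 13. In a merged catalogue the 2 spliced transcripts of ending 16 are listed as single models across an intron of 47786 bp, and whether they come from 1 precursor or from 2 cannot be read from positions.

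Ending 8 had 4 unspliced transcripts beside its 2 with the block. They started close together, at 10505768, 10505762 and, in 2 transcripts, 10505749, between 305 and 324 bp inside the coding exon, and all 4 carried the same CDS of 648 bp from 10505720. Their 3' ends differed, with 3' UTRs of 102 to 522 bases. For ending 9, isoform 76 was unspliced, began 67 bp upstream of the acceptor at 10502059 and had a CDS of 1044 bp.

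Isoform 39 was the 1 spliced transcript outside ending 13 that lacked the block. It began at 10505650, 423 bp inside the exon of ending 8, left that exon at a donor (10505035) that no transcript with the block uses, and then ran through exons of several endings. It took the 105 bp exon and the large exon of ending 9, cut at 10500551, then the acceptors of endings 10 and 11, and closed with a last exon of its own at 10493093 to 10493241. Its CDS of 1473 bp stopped at the stop of ending 9, so the 3 exons after that are untranslated, and the stop lay 1173 bases before the last junction. Of its 5 acceptors, 4 were shared with transcripts that hold the block.

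**Figure D4:**
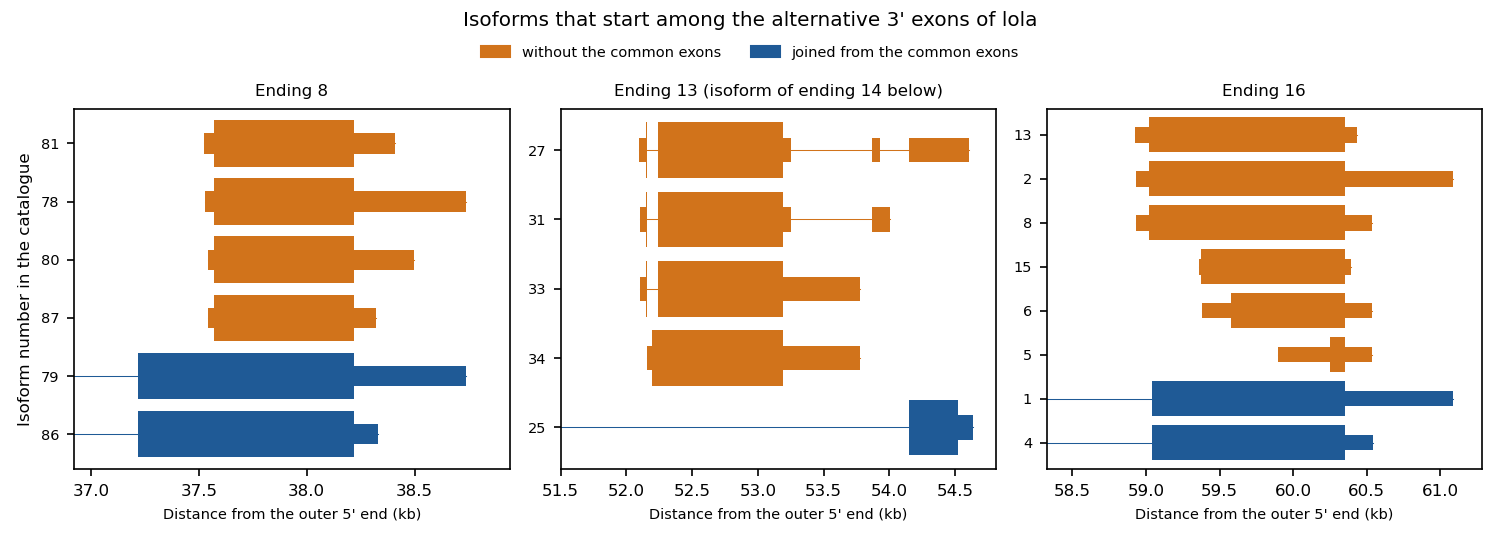
Transcripts that start among the alternative 3' exons, for endings 8, 13 and 16, with distance from the outer annotated 5' end in kb; labels are isoform numbers, thick bars CDS and thin bars untranslated exon. Transcripts without the block (orange) are above those joined from it (blue); for ending 13 the blue transcript is that of ending 14, whose exon isoform 27 shares.

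Seen by coding sequence, the 46 transcripts made 25 CDS versions, 16 among the 30 with the common donor and 9 among the other 16. The 16 are the 15 endings with the start at 10533749 plus the shorter form of ending 6. RefSeq lists 25 transcripts and 25 proteins for lola, a number that was not matched to these versions, since the table gives no exons. On the opposite strand 1 transcript overlapped an exon of lola. It was unspliced, lay at 10488009 to 10488604, had a predicted CDS of 336 bp and overlapped the exon of ending 15 by 418 bp.

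The layout of lola was set against that of other loci by the donor fan-out. This is the largest number of alternative next exons joined to 1 splice donor that can each be paired with a different last exon, taken at the donor of a locus where it is largest. A last exon may be shared, but it counts for 1 next exon only. The fan-out was 13 for lola, at the common donor, where ending 7 takes the last exon that it shares with ending 6 and ending 6 takes that of its 1 transcript that ends in the coding exon; without that transcript it was 12. The median was 1 over the 7505 loci with a spliced isoform. Of these loci 8.78% had a fan-out of at least 2, 0.933% of at least 3 and 0.0533% (4 loci) of at least 5. Among the 190 loci with at least 20 isoforms, 12.1% reached 3. The value of lola was the highest of the catalogue. The gene was chosen for this pattern, so the rank is a description.

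The 5 loci most like lola by this measure were led by mod(mdg4) (fan-out 11, at a donor in 17 of its 23 isoforms), which encodes BTB proteins of chromatin and insulators. The locus of Syp, an RNA-binding protein gene, followed with 7 (31 of 46 isoforms), and that of Kdm4B, a histone demethylase gene, with 5 (7 of 24 isoforms). The locus of Mbs, which encodes a myosin phosphatase subunit, had 4 (14 of 35 isoforms). The fifth, with 4, matched CG42740 best, but the overlap was only 9.3% of the joint span of locus and gene. In all, 10 loci had a fan-out of 4, fru among them, and were ordered by isoform number. The spans of the last 4 loci overlap between 4 and 11 RefSeq protein-coding genes, so neighbouring genes can contribute to their values, whereas those of lola and mod(mdg4) overlap 1 each.

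Other genes of the BTB family are known to choose between alternative endings, among them fru, a gene of male courtship, and ttk, a repressor of neuronal fate. Of 16 BTB genes listed, 11 had a matching locus. Of these, 3 had a fan-out of at least 3, which 0.933% of loci with a spliced isoform reached. Among loci with at least 20 isoforms, 12.1% reached it, so the share depends on isoform number. Of the 11 loci, only those of mod(mdg4) (23 isoforms) and ken (22 isoforms) are that large, so 12.1% is not a matched share for the list. The 3 genes were mod(mdg4), fru with 4 (10 of 17 isoforms) and lov, a gene of larval behaviour, with 3 (10 of 18 isoforms). The loci of fru and lov overlap 3 and 4 RefSeq protein-coding genes. The fan-out was 2 in ttk, psq, chinmo, ken and BtbVII and 1 in ab, Trl and Cp190. The list's median was 2. By the number of last exons that do not overlap, which was 18 for lola, 5 of the 11 had at least 3, as did 8.15% of loci with a spliced isoform. No transcript overlapped br or bab2, while bab1, mamo and rib had overlapping transcripts that shared at most 29.7% of the joint span with the gene.

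**Figure D5:**
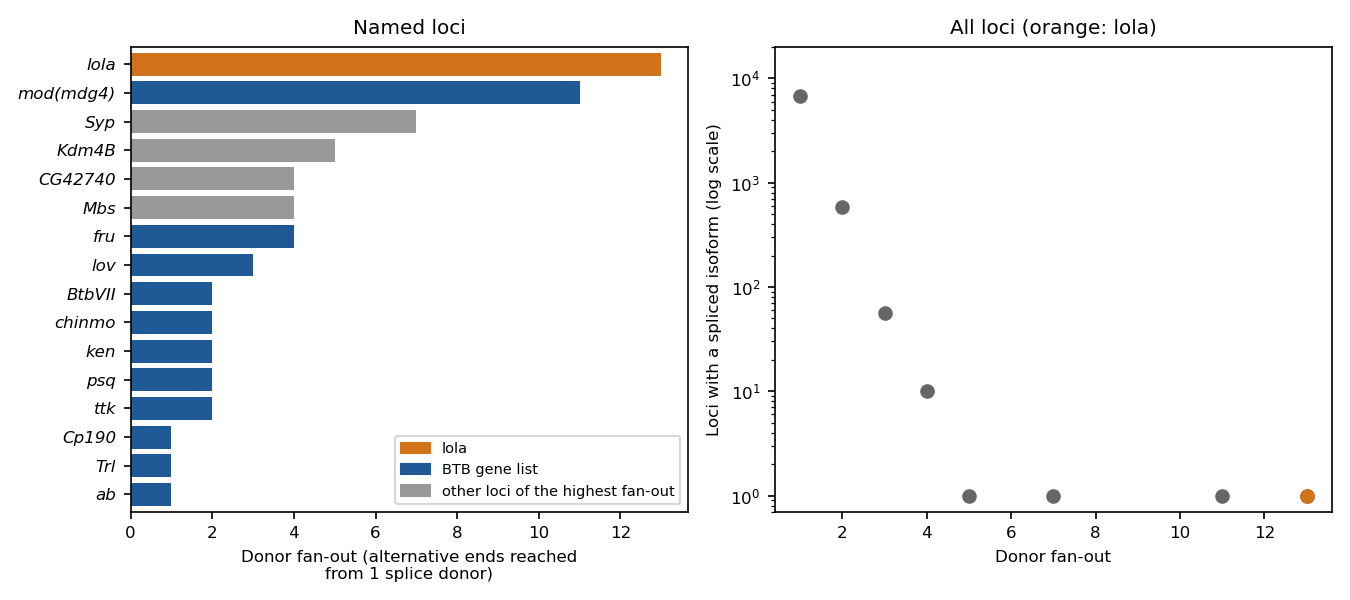
Left, donor fan-out of lola (orange), of the BTB genes with a matching locus (blue) and of the other loci most like lola (grey). Right, number of loci, on a log scale, at each fan-out among the 7505 loci with a spliced isoform; lola lies at 13, mod(mdg4) at 11, and 6846 loci lie at 1.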

How the data were processed

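Per the labels' protocols, polyadenylated RNA of 150 pairs of testes per sample was sequenced as Iso-Seq libraries in runs of 24 hours. The authors deposited 1 annotation of all 4 samples. Its file name records, in this order, a TAMA merge, correction, filtering, a second correction, a tappAS filter and added CDS; tools and parameters beyond these names are not stated in the labels or headers. The builds BDGP6 and dm6, both Release 6, are named in the submitters' processing notes. The deposited values are 1-based positions and reading frames, with no counts, so no error or replicate spread exists for any value. Merging and filtering decide which isoforms are listed, and whether a 5' end is a transcription start or a shortened cDNA was not tested.

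Structures were measured in Python 3.11.15, and the donor fan-out and the numbers of last exon groups, CDS stops and start groups returned the known answer in 500 simulated loci. Those loci were simple: all isoforms were spliced and each alternative exon was a last exon of its own. A last exon shared between next exons, as in lola, was therefore not tried. Common exons are those whose donor at least 50% of the spliced lola transcripts use. Last exons that overlap by at least 1 base form 1 group. RefSeq gene spans of Release 6, which give no strand or exons, supplied names: a listed gene took the locus of its best matching transcript (at least 50% of the joint span), and the 5 loci most like lola (by fan-out, ties by isoform number) the protein-coding gene that overlaps them best. The gene, its members and all lists were chosen with earlier results of these data known. The lola sequences themselves are not shown here.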

Additional observations from a re-analysis of the deposited data

How the results depend on the processing

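Of 29 alternative settings, 23 left a count within 1.5 times its value. Some of the 23 could not move a count: all 46 transcripts have a CDS, so requiring a CDS changed nothing. The 46 members were the same number under both other member rules, and the 4 common exons under a share of 75%. Starts gave 15 groups at 50 bp and between 10 and 19 under other distances and isoform choices, and 5 by the donor of the first exon, a count chosen after seeing the data that covers only transcripts with the common exons. The 18 groups of last exons fell to 9 when at least 2 isoforms were required, and, in a count chosen after seeing the data, 7 CDS stops had at least 2 isoforms with the common exons. The 25 CDS versions fell to 16 when only the stop counted, and also to 16 when only transcripts with the common donor were counted, a count added after seeing the data. Counting last exons that do not overlap, in place of fan-out, put 5 in place of 3 BTB genes at 3 or more, which 8.15% of loci with a spliced isoform reached by that count and 0.933% by fan-out. The rank of lola was 1 under all 4 alternatives. The limits to at least 2 spliced isoforms or at least 20 isoforms only removed other loci, so the rank could not fall there. The alternatives by last exons and by CDS stops count the layout for which the gene was chosen. No paired analysis was possible because the catalogue carries no sample. Leaving out a replicate was not possible for the same reason. Depth is unknown, so an ending that is not listed may still be made in testes, and endings with 1 isoform have no second model behind them.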
